A study of Mus musculus with 6 samples.

Results

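DEAD and DEAH box proteins are the RNA helicases named for the amino acids of the motif with which they hydrolyse ATP. They were taken from a mouse RNA sequencing table as every gene whose symbol starts with Ddx or Dhx and a digit, apart from 2 symbols that the choice leaves out. This gave 50 of the 13007 genes in the table, and all 50 were among the 12427 genes tested. AEL denotes acute erythroid leukemia cells of C57BL/6 mouse bone marrow, with the genotype Trp53-/-ERG-expressing; they were transduced with ERG together with GFP and sorted as GFP-positive cells. NC denotes normal erythroid precursors with the genotype WT, sorted from marrow after staining for CD71 and Ter119. Each group had 3 libraries of poly-A RNA, each from an equal number of sorted cells. Mutations of SETBP1 and ASXL1 appear in the source label of NC as well as AEL (6 of 6 libraries) and do not match the WT genotype given for NC. The labels name the replicates as biological but name no animals, so the p-values here reflect the spread among these samples, which may be technical.

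DEAD box proteins use ATP to pry apart short stretches of RNA or to hold an RNA in place. DEAH box proteins move along a strand and pull structures or proteins off it. The cell needs them to build ribosomes, to drive the spliceosome through its steps, to export and translate mRNA, to destroy it, and to sense viral RNA. In erythroid cells, ribosome production is high in early precursors and winds down as the cells mature, and in humans inherited variants of DDX41 predispose to myeloid leukemia.

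Library totals ran from 8541477 to 9945330 counts in AEL and from 8171676 to 9385507 counts in NC. Levels are given as CPM, that is, counts scaled to a common library total after a TMM adjustment for composition. Trp53 measured 1171, 1092 and 976 CPM in the AEL libraries, against 177, 175 and 162 CPM in the NC libraries, so gene-level counts do not check the label Trp53-/-; Erg measured 790, 556 and 684 CPM in the AEL libraries, against 4.38, 7.56 and 8.52 CPM in the NC libraries. The erythroid marker genes summed to 3100 to 8893 CPM in AEL and to 37469 to 50051 CPM in NC, with Klf1 and Gata1 present in every library. The summed marker lists of 6 other cell types, and pan-leukocyte Ptprc, were lower in every AEL library than in every NC library. Single genes did not all follow their sum. In the mast cell, basophil and eosinophil list, 3 of 5 genes were lower (edgeR adjusted p under 0.05). Fcer1a reached 7.23 CPM in AEL replicate 3, above every NC library, and Cpa3 in that library lay within the NC range. The megakaryocyte list summed to 256, 41.3 and 54.5 CPM in AEL and to 76.1 to 95.9 CPM in NC. Its genes did not move together: of 4 tested, 1 was higher in AEL and 2 were lower (edgeR adjusted p under 0.05). Gp1bb and Ppbp were at 0 in AEL. Itga2b measured 244, 33.3 and 52.0 CPM in the AEL libraries, against 20.5, 22.6 and 14.5 CPM in the NC libraries. The groups were sorted on different markers, so for every difference given here leukemia and sort cannot be told apart. In sorted cells in bulk, fewer cells of a type and less RNA per cell cannot be told apart either. The biological coefficient of variation was 44.3% in AEL and 9.02% in NC.

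The motif that names the family is shown here as its codons, with 5 codons before and after it, because its letters divide the members. The capitals mark the codons of the 4-residue box, written 5′ to 3′ from the GENCODE vM21 coding sequence (GRCm38). Ddx5 and Dhx33 carry the forms that gave the DEAD and DEAH families their names, Asp-Glu-Ala-Asp and Asp-Glu-Ala-His.
Ddx5: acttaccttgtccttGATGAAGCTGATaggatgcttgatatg
Dhx33: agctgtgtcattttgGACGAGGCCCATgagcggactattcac
Ddx39b: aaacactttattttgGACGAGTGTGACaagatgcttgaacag
Ddx52: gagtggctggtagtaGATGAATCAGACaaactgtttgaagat
Dhx9: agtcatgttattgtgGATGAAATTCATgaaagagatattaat
Ddx58: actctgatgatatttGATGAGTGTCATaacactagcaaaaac
Ddx60: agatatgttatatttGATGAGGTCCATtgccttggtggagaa
Ddx19b: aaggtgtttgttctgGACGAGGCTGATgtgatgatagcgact
Ddx19a: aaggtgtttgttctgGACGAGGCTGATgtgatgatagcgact
The third codon reads Cys in Ddx39b and Ddx58, Ser in Ddx52, Ile in Dhx9 and Val in Ddx60, and the stretches of Ddx19b and Ddx19a are the same base for base. A search for such a box after a hydrophobic run matched 49 members, 31 with Asp and 18 with His as its last residue, and did not match Dhx32. The match in Ddx26b is in a gene that GENCODE names Ints6l, which encodes an Integrator subunit relative rather than a helicase. Symbol and box do not always go together, since the boxes of Ddx11, Ddx58 and Ddx60 end in His.

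More members were higher than lower in the leukemic cells. Of the 50 members, 29 were higher in AEL and 3 were lower (edgeR quasi-likelihood test, Benjamini-Hochberg adjusted p under 0.05 over all genes tested), which is 58.0% higher and 6.00% lower. Among all 12427 genes tested 52.8% were called, 23.9% as higher and 29.0% as lower. The median log2 fold change of AEL over NC was 0.48 for the members and -0.05 for all genes, and 41 of 50 members had a fold change above 0. A call with a rise of 2-fold or more was reached by 6 of 50 members, near the share of all genes (13.0%). A call with a fall of 2-fold or more was reached by 2 members, against 21.7% of all genes. All 3 AEL libraries lay above all 3 NC libraries for 31 members and below them for 5, against 29.9% and 36.1% of all genes tested. The members’ summed share of the counts of a library, without TMM scaling, was 0.875%, 0.860% and 0.984% for AEL, against 0.629%, 0.636% and 0.613% for NC. With TMM scaling the rise was smaller, with sums of 8095 to 8948 CPM in AEL and 6622 to 6787 CPM in NC. Without Ddx26b, which is no helicase, 28 of 49 members were higher and 3 lower, with a median log2 fold change of 0.47. By box type, with Ddx26b counted again, 18 of 31 members ending in Asp rose and 1 fell, and 11 of 18 ending in His rose and 2 fell. Ddx26b is among the risers ending in Asp, and 30 members end in Asp without it.

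**Figure D1:**
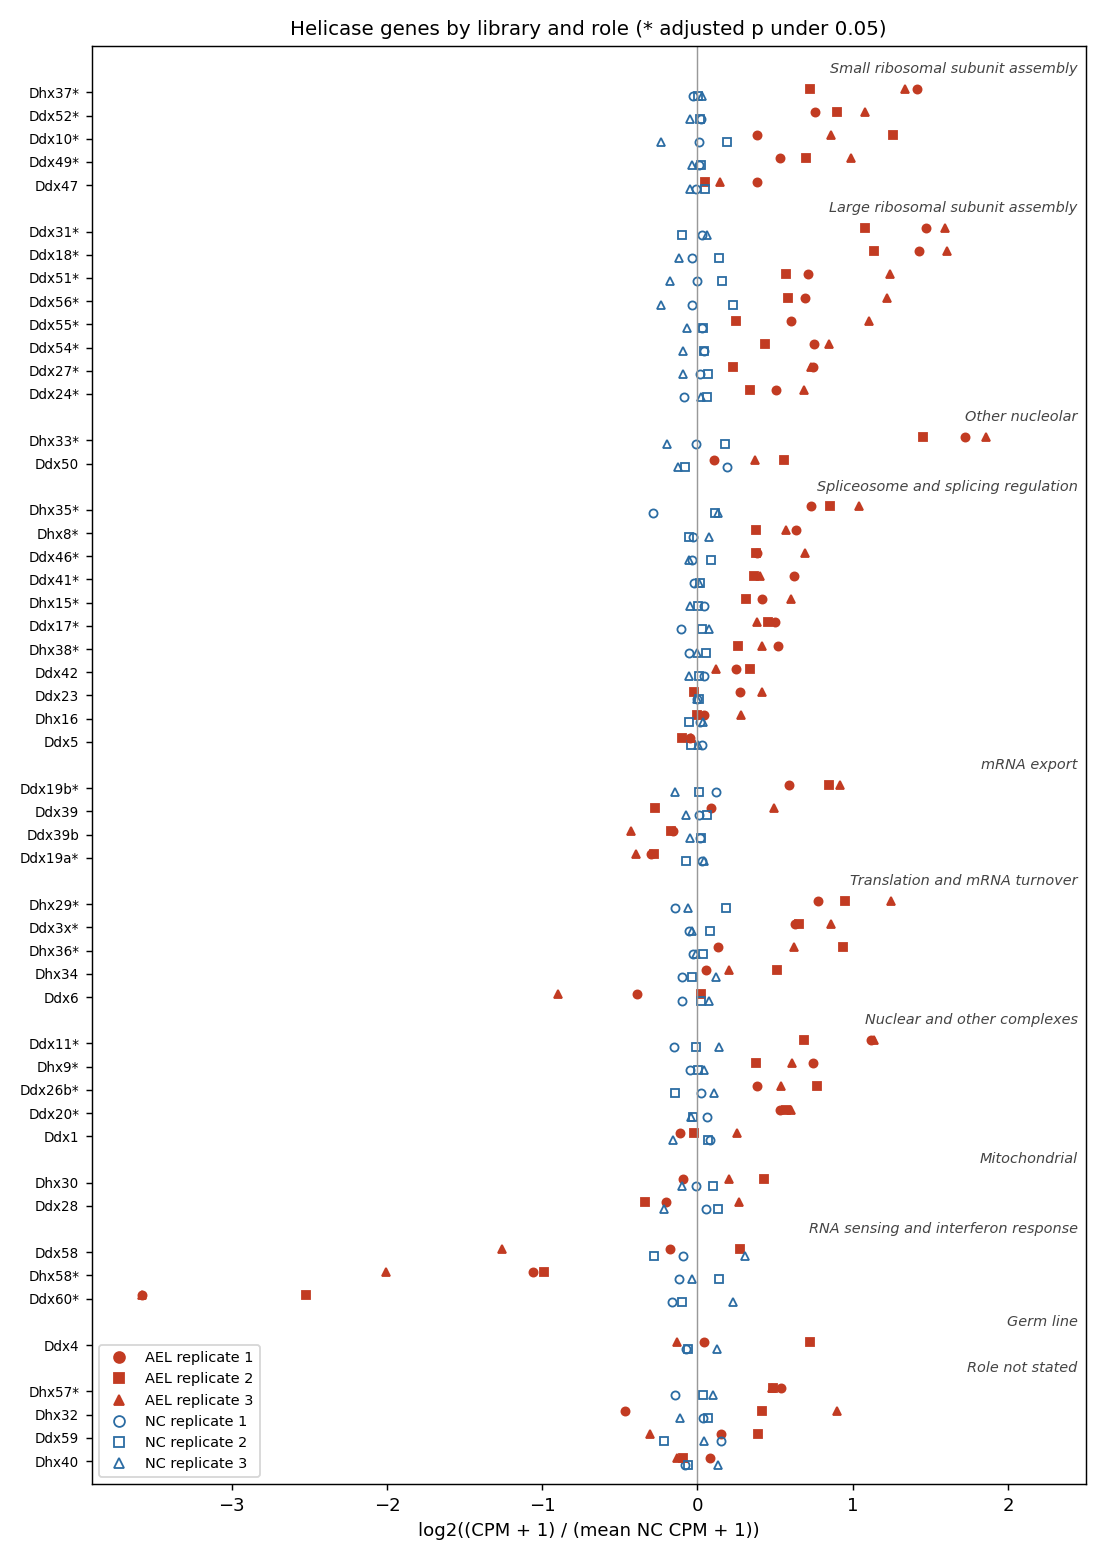
Each library's level of the 50 members (Ddx26b included) as log2((CPM + 1) / (mean NC CPM + 1)), by role, with filled red symbols for AEL and open blue symbols for NC; shapes mark the replicate number and an asterisk marks an edgeR adjusted p under 0.05. The NC symbols stay close to 0, while the ribosome assembly genes in AEL sit to the right and Ddx60 and Dhx58 sit to the left.

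**Figure D2:**
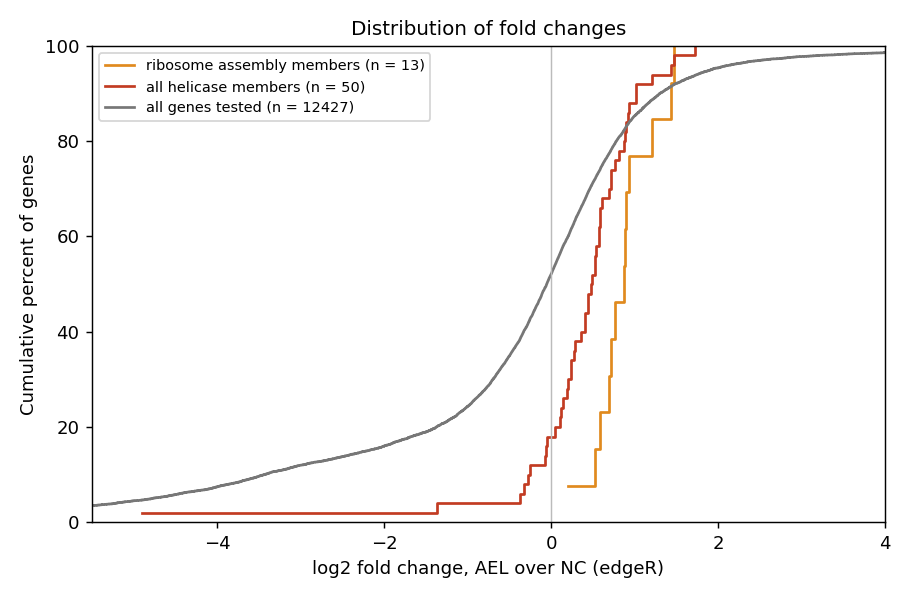
Cumulative percent of genes by log2 fold change of AEL over NC, for 13 ribosome assembly members, all 50 members and all 12427 genes tested. The curve of all members crosses its middle at 0.48 and the ribosome assembly curve at 0.87, while that of all genes does so at -0.05.

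The direction split of the whole table depended on the scaling, and so did part of the members' count. With library totals alone, 33 members were higher and 2 lower, beside 30.6% higher and 24.8% lower among all genes; the share of called genes that were higher was 55.2% there and 45.2% with TMM. The median over all genes was then 0.14, so member changes in either scaling are best read against the median of that scaling.

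Nearly all helicases of ribosome assembly rose. Of 13 such members 12 rose and 0 fell, with a median log2 fold change of 0.87, and all 13 had every AEL library above every NC library; over all genes tested 23.9% rose and 29.9% lay apart in this way. The same shares, with 29.0% for falls, stand behind the counts of each role group given next. Their levels summed to 1273 to 1660 CPM in AEL and to 852 to 943 CPM in NC. The list was drawn up with earlier results of these data known, so its count describes these genes and does not set them apart from others.

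For the small ribosomal subunit, 4 of 5 members rose. Dhx37 (chr5:125413858-125434121, minus strand, GRCm38 as for all positions), whose yeast counterpart strips a small nucleolar RNA from the subunit precursor, measured 105, 65.0 and 99.98 CPM in the AEL libraries, against 38.2, 39.0 and 39.7 CPM in the NC libraries. The NC libraries were nearly equal and AEL replicate 2 was the lowest of the AEL libraries, still well above them (log2 fold change 1.21, SE 0.20, edgeR adjusted p = 0.00291). Ddx52 (chr11:83942062-83963088, plus strand), the counterpart of yeast Rok1, measured 89.1, 98.2 and 111 CPM in the AEL libraries, against 53.1, 52.9 and 50.5 CPM in the NC libraries (0.93, SE 0.13, edgeR adjusted p = 0.00151). Ddx49, the counterpart of yeast Dbp8, averaged 75.2 ± 12.3 CPM for AEL, against 44.2 ± 0.940 CPM for NC (SD, n = 3 each). Ddx10, the counterpart of yeast Dbp4, averaged 77.5 ± 23.3 CPM for AEL, against 41.7 ± 6.25 CPM for NC (SD, n = 3 each). Ddx47, the counterpart of yeast Rrp3, did not pass, at 0.20 on the log2 scale (SE 0.12, edgeR adjusted p = 0.204).

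All 8 members of large subunit assembly rose. Ddx31 (chr2:28840406-28905571, plus strand), the counterpart of yeast Dbp7, measured 34.7, 26.2 and 37.8 CPM in the AEL libraries, against 12.1, 10.99 and 12.4 CPM in the NC libraries, a 2.77-fold rise (log2 fold change 1.47, SE 0.21, edgeR adjusted p = 0.00177). Ddx18 (chr1:121553835-121567989, minus strand), the counterpart of yeast Has1, measured 80.7, 65.8 and 91.7 CPM in the AEL libraries, against 28.6, 32.5 and 26.9 CPM in the NC libraries, a 2.70-fold rise (1.43, SE 0.17, edgeR adjusted p = 0.000922). In both genes AEL replicate 2 was the lowest AEL library and lay above every NC library. Ddx51 and Ddx56, counterparts of yeast Dbp6 and Dbp9, rose 1.85-fold and 1.83-fold. Ddx55, Ddx54, Ddx27 and Ddx24, counterparts of yeast Spb4, Dbp10, Drs1 and Mak5, rose 1.64-fold, 1.62-fold, 1.505-fold and 1.44-fold.

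Among the other nucleolar members, Dhx33 had the largest rise of the family. This protein has been linked to ribosomal RNA transcription. Dhx33 (chr11:70984091-71004437, minus strand) measured 93.7, 77.6 and 103 CPM in the AEL libraries, against 27.6, 31.5 and 24.1 CPM in the NC libraries, a 3.30-fold rise (log2 fold change 1.72, SE 0.17, edgeR adjusted p = 0.000521). Every AEL library held more than any NC library by a wide gap. Ddx50, a nucleolar protein, averaged 96.1 ± 15.01 CPM for AEL, against 74.8 ± 9.29 CPM for NC (SD, n = 3 each) and did not pass (edgeR adjusted p = 0.1001).

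The AEL libraries were not alike for ribosome assembly. Replicate 3 was the highest AEL library for 9 of the 13 members and the lowest for 0, while replicate 2 was the lowest for 10. The median log2 level over NC of the 8 large subunit genes, with a pseudocount of 1 CPM, was 0.73, 0.50 and 1.16 in AEL replicates 1, 2 and 3. Over all genes tested, replicate 3 was the highest AEL library for 30.9%, while the share lowest in replicate 2 was not counted. The order was not confined to ribosome assembly. Among all 50 members, replicate 3 was the highest AEL library for 25 and replicate 2 the lowest for 23.

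Promoters of members that rose are shown because the E-box CACGTG, a palindrome bound by MYC and related factors, lies in them. RefSeq windows (GRCm38.p6) run from 250 bases before to 50 bases after the start. Dhx33 (chr11:71004383-71004682, minus strand) has 1 match and Dhx35 (chr2:158794557-158794856, plus strand) has 2, in capitals.
Dhx33: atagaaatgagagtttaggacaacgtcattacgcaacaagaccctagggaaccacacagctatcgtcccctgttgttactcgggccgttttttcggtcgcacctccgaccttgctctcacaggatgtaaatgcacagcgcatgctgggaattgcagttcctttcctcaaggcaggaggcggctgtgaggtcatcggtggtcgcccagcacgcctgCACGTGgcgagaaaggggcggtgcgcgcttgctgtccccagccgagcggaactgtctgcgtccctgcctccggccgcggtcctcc
Dhx35: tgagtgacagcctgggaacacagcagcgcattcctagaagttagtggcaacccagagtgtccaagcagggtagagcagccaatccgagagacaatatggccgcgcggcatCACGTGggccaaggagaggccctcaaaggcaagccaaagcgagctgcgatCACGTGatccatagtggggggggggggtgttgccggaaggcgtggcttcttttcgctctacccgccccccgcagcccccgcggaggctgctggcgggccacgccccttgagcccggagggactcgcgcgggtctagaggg
The match of Dhx33 begins 35 bases before the start, and those of Dhx35 begin 140 and 90 bases before it. The share of promoters with the motif was near that of other genes: 6 of 44 members with a window held it (13.6%), against 11.8% of 9720 genes of the count table and 8.09% of all 27025 genes with windows of the same length. The other 4 were Ddx4, Ddx42, Ddx5 and Dhx40, none of which passed the test between AEL and NC. A match says only that these letters occur there.

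Of 11 spliceosomal and splicing members 7 rose, 0 fell and 4 did not pass, with a median log2 fold change of 0.45. Dhx35 (chr2:158794807-158858214, plus strand), found in the catalytic spliceosome, measured 30.5, 33.3 and 38.1 CPM in the AEL libraries, against 14.6, 19.5 and 19.8 CPM in the NC libraries (0.92, SE 0.20, edgeR adjusted p = 0.00833). Dhx8, which releases the finished mRNA, rose 1.45-fold, and Dhx38, which remodels the spliceosome before exon joining, rose 1.32-fold. Dhx15, which takes the spliceosome apart, averaged 434 ± 45.3 CPM for AEL, against 318 ± 10.3 CPM for NC (SD, n = 3 each). Ddx46, which acts as the branch site is bound, rose 1.41-fold.

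Ddx41 (chr13:55530410-55536658, minus strand) measured 95.0, 79.3 and 81.7 CPM in the AEL libraries, against 60.5, 62.0 and 61.7 CPM in the NC libraries. The NC libraries lay close together below all AEL libraries (log2 fold change 0.47, SE 0.12, edgeR adjusted p = 0.0154). Ddx42 and Ddx23, which work early in spliceosome assembly, and Dhx16, which acts at its activation, had log2 fold changes of 0.24, 0.24 and 0.11 and did not pass. For Ddx42 the 3 AEL libraries still lay above the 3 NC libraries, at 129 to 149.5 CPM in AEL and 114 to 122 CPM in NC.

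Ddx5 and Ddx17 are close relatives that act in splicing and as transcription coactivators, and of the pair only Ddx17 passed the test. Ddx17 (chr15:79527736-79546741, minus strand) measured 607, 588 and 559 CPM in the AEL libraries, against 399, 437 and 451 CPM in the NC libraries (log2 fold change 0.45, SE 0.11, edgeR adjusted p = 0.0117). Ddx5 (chr11:106780355-106789185, minus strand) measured 904, 874 and 910.1 CPM in the AEL libraries, against 957, 911 and 941 CPM in the NC libraries (-0.06, SE 0.10, edgeR adjusted p = 0.622). Ddx17 counts per Ddx5 count were 0.671, 0.672 and 0.615 in AEL and 0.416, 0.479 and 0.479 in NC, with no overlap. Their log2 ratio was 0.51 higher in AEL. The exact two-sided permutation test gave p = 0.10, the smallest that 3 against 3 libraries allow, and 0.15 adjusted over the 3 close pairs compared. The coding sequences are 70.1% identical and the transcripts share no exact run longer than 21 bases.

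The mRNA export helicases split by gene. Ddx19b and Ddx19a, neighbours on chromosome 8 (111003188 to 111031751 and 110974996 to 110997800, both on the minus strand, GRCm38), release export factors at the nuclear pore. Ddx19b measured 44.6, 53.3 and 56.0 CPM in the AEL libraries, against 31.8, 29.4 and 26.4 CPM in the NC libraries (log2 fold change 0.81, SE 0.16, edgeR adjusted p = 0.00558). Ddx19a measured 109, 110.4 and 101 CPM in the AEL libraries, against 137, 127 and 138 CPM in the NC libraries (-0.33, SE 0.10, edgeR adjusted p = 0.0319). The pair thus moved in opposite directions with no overlap between the groups in either gene, while its sums overlapped, at 153 to 164 CPM in AEL and 157 to 169 CPM in NC. Ddx19b counts per Ddx19a count were 0.409, 0.483 and 0.552 in AEL and 0.233, 0.231 and 0.191 in NC, a log2 ratio 1.14 higher in AEL (exact two-sided permutation p = 0.10, the smallest possible, and 0.15 adjusted over the 3 pairs).

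The split between Ddx19b and Ddx19a is uncertain because their sequences are so close. Their coding sequences are 93.6% identical and the transcripts share an exact run of 275 bases, so the authors' counting could have divided or dropped reads between them. The call of Ddx19a ended with library totals alone (log2 fold change -0.14) and when any single library other than AEL replicate 2 was left out (edgeR adjusted p = 0.0755 to 0.111).

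Ddx39b and Ddx39, which load mRNA with export factors, did not pass. Ddx39b (chr17:35241746-35253707, plus strand) measured 356, 354 and 296 CPM in the AEL libraries, against 403, 405 and 386 CPM in the NC libraries, all AEL libraries below all NC libraries (-0.25, SE 0.11, edgeR adjusted p = 0.110). Ddx39 (chr8:83715177-83726892, plus strand) measured 356, 278 and 473 CPM in the AEL libraries, against 338, 349.5 and 319 CPM in the NC libraries, so the AEL libraries lay on both sides of NC. Their ratio was 0.999, 0.786 and 1.6005 in AEL and 0.839, 0.863 and 0.826 in NC (exact two-sided permutation p = 0.40, also 0.40 adjusted over the 3 pairs). Adgre5, on the opposite strand, shares 17.4% of the exon bases of Ddx39, and the strandedness of the counting is not given in the sources used here.

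**Figure D3:**
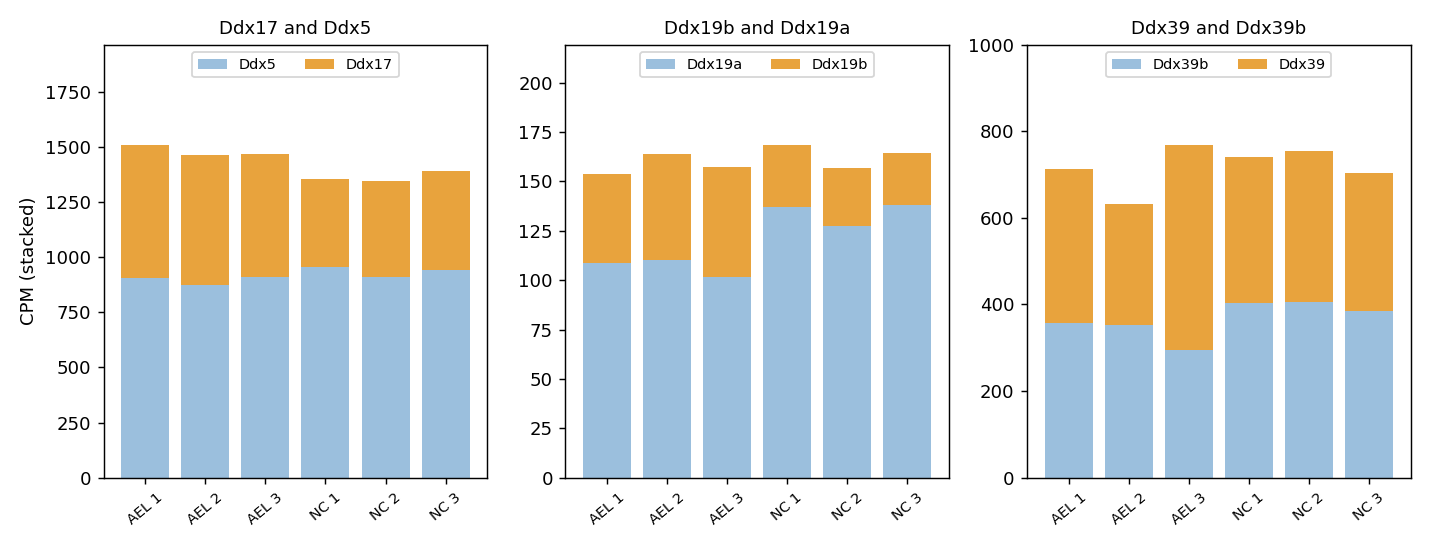
Stacked levels in CPM of the 3 pairs of close relatives in each AEL and NC library. The Ddx19b part is larger and the Ddx19a part smaller in every AEL library at nearly the same sum, Ddx17 is larger over a nearly level Ddx5, and Ddx39 is largest in AEL replicate 3.

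In translation and mRNA turnover, 3 of 5 members rose. Ddx3x (chrX:13280970-13294052, plus strand), which helps ribosomes start on structured mRNAs, measured 849, 865 and 998 CPM in the AEL libraries, against 528, 582 and 537 CPM in the NC libraries (log2 fold change 0.72, SE 0.12, edgeR adjusted p = 0.00283). Per kilobase of merged exons it was the most abundant of the 50 members in AEL, at 171 CPM per kilobase, against 104 in NC, where it ranked 3. Helicases under other names were not ranked. Ddx5, at 155 CPM per kilobase in AEL and 162 in NC, and Ddx39b, at 88.6 in AEL and 105 in NC, were the other members of the top 3 in both groups. Dhx29 (chr13:112927454-112969432, plus strand), which binds the small ribosomal subunit during scanning, measured 61.9, 69.9 and 86.2 CPM in the AEL libraries, against 32.2, 40.8 and 34.2 CPM in the NC libraries (1.02, SE 0.18, edgeR adjusted p = 0.00332). Dhx34, a factor of nonsense-mediated decay, averaged 36.2 ± 6.18 CPM for AEL, against 29.9 ± 2.44 CPM for NC (SD, n = 3 each) and did not pass.

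Ddx6, Ddx10, Dhx30 and Dhx36 were highest in AEL replicate 2, the AEL library in which the median gene of their chromosome was also highest. They were singled out after these values were seen: 14 of 50 members were highest in that library, 10 of them on other chromosomes, as were 37.7% of all genes tested. The median log2 level over NC of 503 chromosome 9 genes was -0.69, -0.00041 and -0.74 in AEL replicates 1, 2 and 3, counting genes at 10 CPM or more in either group. Ddx6, which drives decapping and translational repression in P-bodies, measured 286, 381 and 201 CPM in the AEL libraries, against 351, 381 and 394 CPM in the NC libraries. It did not pass (-0.38, SE 0.23, edgeR adjusted p = 0.200), but did without AEL replicate 2 (-0.59, adjusted p = 0.0154). Ddx10 and the mitochondrial Dhx30 lie on the same chromosome, and were highest in that library too, at 101 and 90.5 CPM, and lowest in replicate 1, at 54.7 and 62.7 CPM. On chromosome 3 the median of 451 genes was 0.10, 0.54 and 0.19. Dhx36, which unwinds G-quadruplexes, measured 81.4, 143 and 114.5 CPM in the AEL libraries, against 72.8, 76.1 and 73.6 CPM in the NC libraries (0.61, SE 0.21, edgeR adjusted p = 0.0428). Its call ended when any single library other than AEL replicate 1 was left out (edgeR adjusted p = 0.0751 to 0.120). Ddx20, also on chromosome 3, was nearly level across the AEL libraries, at 71.7, 73.6 and 75.4 CPM, against 51.6, 48.4 and 47.9 CPM in NC. The part of the chromosomes in these values was not tested.

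**Figure D4:**
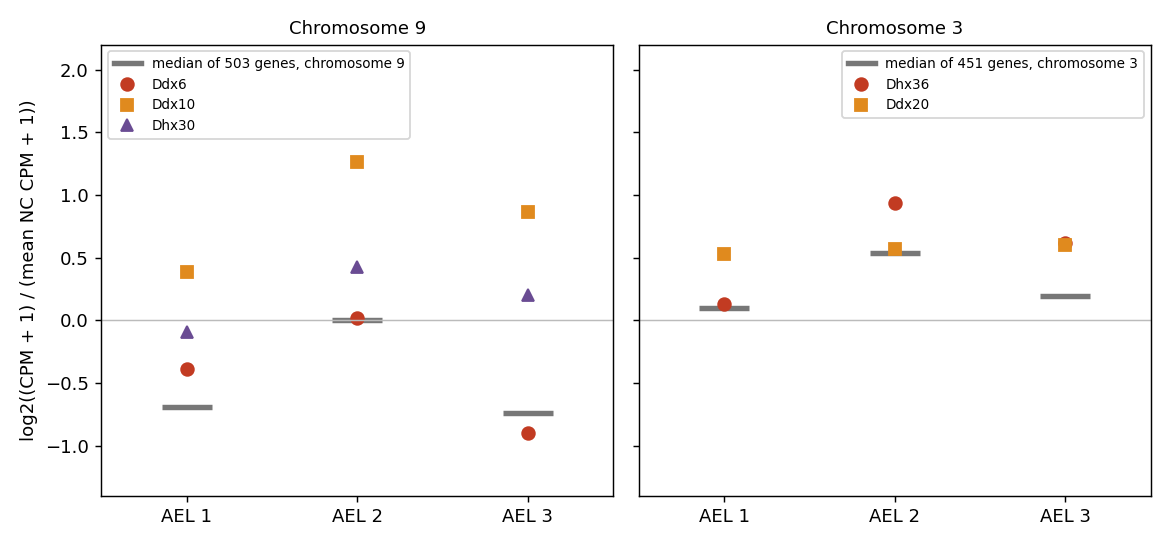
Log2((CPM + 1) / (mean NC CPM + 1)) of the members on chromosomes 9 and 3 in each AEL library, with gray bars for the median of the chromosome's genes. Ddx6, Ddx10 and Dhx30 are each highest in AEL replicate 2, as is the chromosome 9 median, and Dhx36 is highest there with the chromosome 3 median.

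Of 5 members of other nuclear complexes, 4 rose. Ddx20, a part of the SMN complex that assembles small nuclear RNPs, rose 1.49-fold with a spread of 1.84 CPM (SD, n = 3) in AEL and 1.99 CPM (SD, n = 3) in NC. Ddx11 (chr17:66123520-66152174, plus strand), a DNA helicase of sister chromatid cohesion, measured 61.9, 45.7 and 62.9 CPM in the AEL libraries, against 25.1, 27.9 and 31.0 CPM in the NC libraries (log2 fold change 1.02, SE 0.18, edgeR adjusted p = 0.00382). Dhx9, RNA helicase A, averaged 672 ± 84.4 CPM for AEL, against 448 ± 13.5 CPM for NC (SD, n = 3 each). Ddx26b, the Integrator subunit relative, rose 1.49-fold. Ddx1, of the tRNA ligase complex, averaged 209 ± 28.4 CPM for AEL, against 202 ± 18.2 CPM for NC (SD, n = 3 each, edgeR adjusted p = 0.789).

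Of the 3 RNA sensor and interferon-response members 2 fell, against 29.0% of all genes tested, and all 3 had fold changes below 0, against 52.0% of all genes. Ddx60 (chr8:61928087-62038244, plus strand), an antiviral gene induced by interferon, held 0, 10 and 0 counts in AEL and 75 to 113 counts in NC, or 0, 1.09 and 0 CPM in AEL and 9.67, 10.2 and 13.0 CPM in NC. Its fitted log2 fold change was -4.90 (SE 1.09, edgeR adjusted p = 0.00945). The mean of the 3 NC libraries was 30.3-fold that of the 3 AEL libraries. Leaving out AEL replicate 2, which held all AEL counts of Ddx60, left only AEL libraries at 0. The bound of at least 32.4-fold lower that this gave follows from the choice of library and does not test the fall. It was set against a floor of 3 counts in AEL replicate 1 (0.338 CPM after TMM scaling, the higher floor of the remaining AEL libraries). Ddx60 was the single member below 1 CPM in some library and entered the test through NC. Dhx58 (chr11:100694884-100704271, minus strand), which encodes the sensor regulator LGP2, measured 12.04, 12.7 and 5.76 CPM in the AEL libraries, against 24.0, 28.9 and 25.6 CPM in the NC libraries (-1.37, SE 0.33, edgeR adjusted p = 0.0127), a call that ended without NC replicate 2 (adjusted p = 0.0538).

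Ddx58 (chr4:40203773-40239828, minus strand), which encodes the viral RNA sensor RIG-I, measured 15.3, 21.3 and 6.68 CPM in the AEL libraries, against 16.2, 14.2 and 21.8 CPM in the NC libraries. The groups overlapped (-0.27, SE 0.43, edgeR adjusted p = 0.618), and AEL replicate 3 was the lowest library for Ddx58 and Dhx58. Ifih1, the related sensor MDA5 whose symbol keeps it out of the family count, averaged 45.2 CPM for AEL, against 46.1 CPM for NC (edgeR adjusted p = 0.879), and Mavs, their shared signaling adaptor, averaged 146 CPM for AEL, against 76.5 CPM for NC (edgeR adjusted p = 0.00471). Monocyte and macrophage markers were also lower in AEL than in NC, and all 10 fell. Their sum was 7.99, 211 and 48.7 CPM in AEL and 3768 to 4477 CPM in NC, with Spic at 0 in AEL. The neutrophil list summed to 17.4, 1070 and 115 CPM in AEL and to 7496 to 8718 CPM in NC. AEL replicate 2, the AEL library with Ddx60 counts, had the highest sum of both lists among the AEL libraries. Dhx58 did not follow the sums across the AEL libraries. Both sums were lowest in replicate 1, where Dhx58 was at 12.04 CPM, against 12.7 CPM in replicate 2 and 5.76 CPM in replicate 3. The part of these cells in the falls was not tested.

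**Figure D5:**
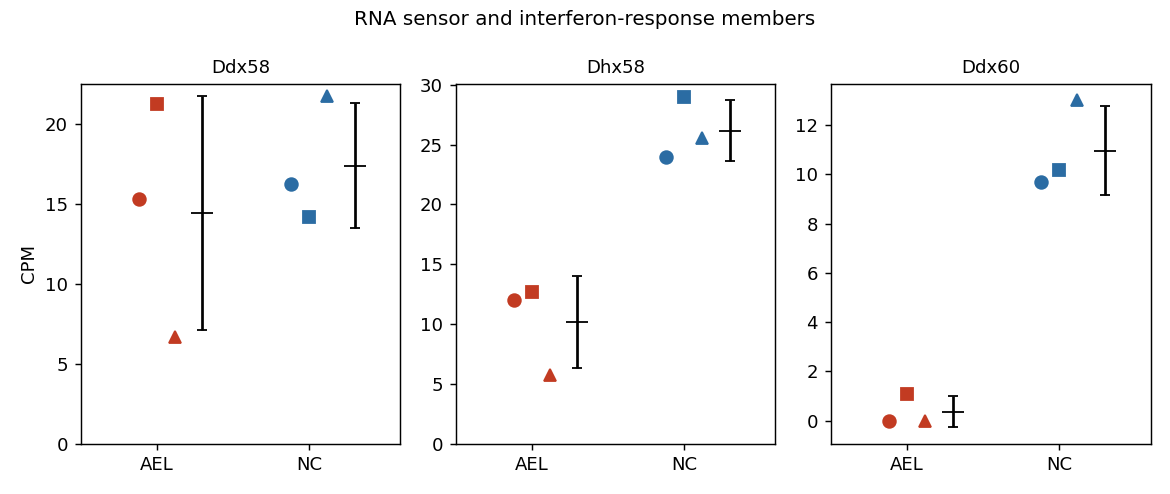
CPM of Ddx58, Dhx58 and Ddx60 in each library, with AEL in red, NC in blue, shapes for replicates 1 (circle), 2 (square) and 3 (triangle), and bars for the mean ± SD of 3 libraries. AEL lies below NC for Dhx58 and Ddx60 and overlaps it for Ddx58.

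Of the remaining members 1 rose. Dhx57 averaged 23.4 ± 0.579 CPM for AEL, against 16.2 ± 1.51 CPM for NC (SD, n = 3 each, edgeR adjusted p = 0.0453). Dhx40 and Ddx59 had log2 fold changes of -0.05 and 0.11, and Dhx32 measured 16.1, 30.5 and 43.1 CPM in the AEL libraries, against 20.8 to 23.7 CPM in the NC libraries. Ddx4, the Vasa helicase of germ cells, averaged 9.71 ± 3.57 CPM for AEL, against 7.93 ± 0.712 CPM for NC (SD, n = 3 each, edgeR adjusted p = 0.486). Ddx28, which helps assemble the mitochondrial ribosome, and Dhx30, of mitochondrial RNA granules, had log2 fold changes of -0.07 and 0.20 and did not pass (edgeR adjusted p = 0.821 and 0.339).

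Spread was wider in the leukemic cells. The coefficient of variation among libraries was larger in AEL than in NC for 44 of 50 members, with a median of 14.8% in AEL and 6.13% in NC; it was larger for 82.2% of all genes tested. Of the 32 calls, 15 held whichever library was left out: those of Ddx3x, Ddx11, Ddx18, Ddx19b, Ddx20, Ddx31, Ddx49, Ddx52, Ddx54, Ddx60, Dhx9, Dhx29, Dhx33, Dhx35 and Dhx37. Leaving out NC replicates 1, 2 and 3 reduced the members called higher to 17, 19 and 18, and the share of all genes called higher to 15.4%, 15.9% and 16.6%. The calls of Ddx27, Ddx41, Dhx15, Dhx38 and Dhx57 ended when any single NC library was left out, and that of Ddx55 did so too and also without AEL replicate 3. Those of Ddx10, Ddx46 and Ddx56 ended without NC replicate 1 or 3, and that of Ddx17 without NC replicate 1 or 2. Ddx24, Dhx8, Ddx26b and Ddx51 each lost their call without 1 NC library (replicate 1 for Ddx24, 2 for Dhx8 and Ddx26b, and 3 for Ddx51).

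Exons of 4 members overlap those of another gene on the opposite strand over 10% or more of their bases. Besides Ddx39 these were Ddx49, with Homer3 over 29.8%, Ddx41, with Gm46416 over 17.4%, and Ddx54, with Gm43579 over 14.2%. Homer3 itself averaged 10.2 CPM for AEL, against 5.24 CPM for NC. If the counting ignored strand, reads of these partners cannot be told apart.

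Helicases that carry other names and the partners of these enzymes were counted from lists drawn up with earlier results known. Of 11 tested helicases under other names, 4 rose and 0 fell, against 23.9% and 29.0% of all genes tested: Snrnp200, the helicase that activates the spliceosome, averaged 800.0 CPM for AEL, against 261 CPM for NC, and Dicer1, Ascc3 and Skiv2l2 rose by 0.85, 0.78 and 0.55 on the log2 scale. The translation initiation helicases Eif4a1 and Eif4a2 and the exon junction helicase Eif4a3 had log2 fold changes of -0.02, -0.34 and -0.08 and did not pass. Of 38 partner genes 16 rose and 1 fell, against the same shares. Those shares also stand behind the partner subsets given next, which are too small to be set apart from other genes. Of 6 cofactors of Ddx6 2 rose: Cnot1, the scaffold of the deadenylase complex, averaged 533 CPM for AEL, against 189 CPM for NC, and Patl1 averaged 54.3 CPM for AEL, against 22.3 CPM for NC. The other cofactors, Edc3, Dcp1a, Lsm14a and Eif4enif1, had log2 fold changes of -0.25, 0.29, 0.11 and 0.08 and did not pass. Of 4 genes of the SMN complex, which holds Ddx20, 3 rose, Gemin5 and Gemin4 by 1.43 and 0.98 on the log2 scale. Of 12 genes with a G-patch, a domain that binds DEAH helicases, 5 rose, Gpatch4 and Nkrf by 1.36 and 1.45, and 7 did not pass. Rbm8a, a core protein of the exon junction complex, fell by 0.39 (SE 0.13, edgeR adjusted p = 0.0403).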

How the data were processed

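The authors deposited 1 table of whole-number counts per gene, although its name says CPM: library totals differ and no value is fractional. Per the submitters' processing notes, mm10 was the build and edgeR 3.32.1 was among the tools. Aligner, counter and strandedness are not given in the sources at hand. Counts were scaled by TMM and fitted with edgeR 4.0.16 (quasi-likelihood, group as the only term, R 4.3.3) over the 12427 genes that reached 1 CPM in 3 libraries, with Benjamini-Hochberg adjustment at 0.05 over all of them. SE was obtained from F as |log2 fold change| / √F. DESeq2 1.42.0 (26 adjusted p-values NA) and limma 3.58.1 were alternatives. The fit was tested on simulated data that gave both groups the same spread per gene. That test therefore does not cover the unequal spread of AEL and NC. The values of 1 erythroid marker gene are not reported here.

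The members, role groups, partner and marker lists, tests and alternatives were chosen with earlier results of these data known. The rule for genes given in every library took, among called members with no overlap and a higher-group mean of at least 10 CPM, the 8 largest rises and at most 8 falls (there were 3), besides the close pairs, Ddx3x, Ddx41, the sensors and the top 3 per kilobase. Dhx36, Ddx6, Ddx20 and Dhx32, and the partner and other helicase genes given with values, were chosen after their values were seen. Positions, exon lengths and coding sequences come from GENCODE vM21 (GRCm38, which mm10 denotes), and promoters from RefSeq GRCm38.p6. After TMM scaling 3 counts equal 0.274 to 0.338 CPM in AEL and 0.345 to 0.387 CPM in NC, a floor that covers counting error only. No library repeated another: chi-square per degree of freedom was 43.9 to 55.2 within AEL and 4.72 to 8.61 within NC.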

Additional observations from a re-analysis of the deposited data

How the results depend on the processing

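The members called higher numbered 27 to 33 and those called lower 2 or 3 under library totals alone, median-of-ratios and upper-quartile scaling, TMM without chromosomes 3, 9, 14, 19 and Y, no filter, a filter at 10 CPM, DESeq2, limma at pseudocounts of 1 and 5 CPM and a robust fit, and 29 of the 32 calls held under all of them that gave the gene a value; the calls of Ddx19a, Dhx36 and Dhx57 did not. Leaving out 1 library gave 17 to 31 members higher and 1 to 4 lower, and 1915 to 3375 of all genes higher and 2662 to 3921 lower. No called member changed sign. Members near 0 did: Ddx5, Ddx28 and Dhx40 were at 0.12, 0.12 and 0.14 with library totals alone, and across libraries left out the ranges were -0.040 to 0.20 for Ddx1, -0.25 to 0.11 for Ddx28, -0.058 to 0.36 for Ddx39, -0.0075 to 0.51 for Ddx4, -0.083 to 0.0048 for Ddx5, -0.64 to 0.11 for Ddx58, -0.028 to 0.32 for Ddx59 and -0.085 to 0.026 for Dhx40; the cause was not tested. With the replicate number as a block, 20 members were higher and 2 lower, and 18.0% of all genes were higher and 26.1% lower. The deviations of same-numbered AEL and NC libraries correlated at 0.08, -0.02 and -0.03. AEL replicate 1 correlated best with NC replicate 1 (0.08) and AEL replicate 2 with NC replicate 3 (0.09). Correlations this small, from 3 libraries per group, cannot tell whether the numbers pair the samples. Depth limits Ddx60, which had 0 counts in 2 AEL libraries.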
